A study of Gallus gallus with 24 samples.

Results

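The soleus, a muscle of the lower leg, was compared between hens fed a high-fat diet for 15 days and hens kept on a control diet. The comparison takes the 4 libraries labelled soleus and short-term high-fat diet (SHFD_SOL) and the 4 labelled soleus and control (CONT_SOL), 8 of the 24 libraries of the series. Both groups were chosen by label alone, and every gene with at least 1 FPKM in at least 4 of the 24 libraries was tested, 10944 of 20780, of which 8873 carry a symbol. FPKM count the fragments of a gene after scaling to transcript length and to the mapped reads of the library. At the edge of that filter, 138 genes reached 1 FPKM in exactly 4 libraries and were tested, and 205 reached it in exactly 3 and were not.

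All birds were Guangyuan Grey hens, a chicken breed, aged 150 days at the start and 210 days when killed, and every group was fasted for 12 h beforehand. Where in that span the 15 days of high-fat diet fell is not stated here. The experiment held 270 hens, of which 9 per diet were selected, and both the soleus and the breast muscle pectoralis major (PEM) were taken from them. Another diet group received the high-fat diet for 60 days (LHFD_SOL in soleus). The soleus pieces came from the widest part of the muscle without its surface layer, so they hold fibres together with vessels, nerve and connective tissue. In such bulk tissue fewer cells of a type and less RNA per cell cannot be told apart. The composition of the diets and the bird behind each library are not given in the sources used here. The p-values therefore measure only the spread between these samples, and that spread was estimated over all 24 libraries of both muscles.

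Muscle fibres take up circulating fatty acids, hold them on binding proteins, activate them to acyl-CoA, and burn them in mitochondria or store them as triglyceride droplets. Receptors of the PPAR family are known to raise genes of these steps when fatty acids are plentiful, and fasting acts on many of the same genes. The soleus mixes slow oxidative with faster fibres, and its contractile lattice is kept in order by chaperones and by proteins of the Z-disc, the plate that anchors the actin filaments.

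Before the results, 1 library has to be set apart. In slow-type genes the soleus libraries stood far above the breast muscle: the mean over 20 slow-type sarcomere and calcium handling genes lay between 8.53 and 10.26 on the log2(FPKM + 1) scale in the 12 soleus libraries and between 2.15 and 3.56 in the 12 PEM libraries. The mean over 17 fast-type genes did not separate the muscles, at 7.20 to 9.91 in soleus and 9.59 to 9.89 in PEM. Within the 15-day group, SHFD_SOL 4 had a fast-type mean of 7.20 against 9.41 to 9.77 in its 3 partners, and a slow-type mean of 10.26 against 8.87 to 9.36. Its mean correlation with its own group was 0.959, against 0.969 to 0.974 for the others and 0.976 to 0.978 within CONT_SOL. CONT_SOL 3 leaned the same way less far, with a fast-type mean of 8.83 against 9.54 to 9.62 and a slow-type mean of 9.72 against 9.12 to 9.23. Mitochondrially encoded genes held 20.6% to 27.0% of the FPKM sum in the 8 libraries. The number of genes that reached 1 FPKM was 9888 to 10149 in SHFD_SOL and 10262 to 10590 in CONT_SOL, without overlap. The part of this difference in the lower values of SHFD_SOL was not tested. The sequencing depth behind these values is unknown.

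**Figure D1:**
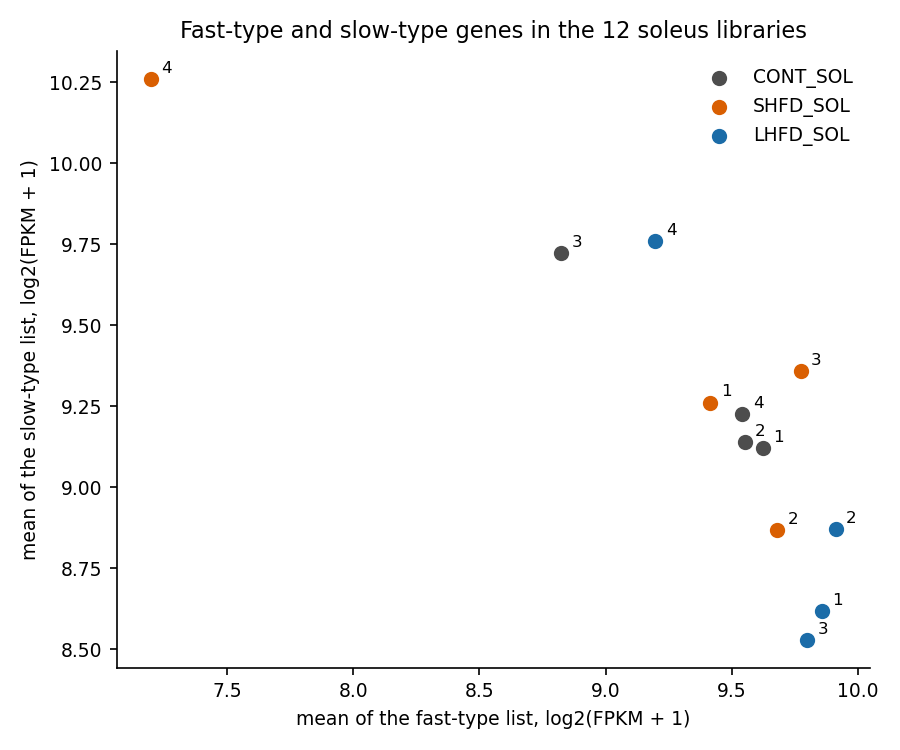
Mean of 17 fast-type genes (x axis) against the mean of 20 slow-type genes (y axis), both in log2(FPKM + 1), for the 12 soleus libraries, coloured by diet and numbered by replicate. SHFD_SOL 4 lies alone at 7.20 and 10.26, and CONT_SOL 3 and LHFD_SOL 4 lie between it and the other 9 libraries.

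After 15 days of high-fat feeding the soleus showed a small set of changed genes. The rises included XIRP1, KLHL41 and SYNPO2L, proteins of the sarcomere and Z-disc, and the chaperones HSPH1, HSPA4 and DNAJB4, and the falls included the growth factor FGF1 and GPAT3, an enzyme of triglyceride synthesis. Of 10944 genes, 61 were called at a limma adjusted p under 0.05, a share of 0.557%, with 18 higher (0.164%) and 43 lower (0.393%). The called rises were the larger changes, with a median of 1.07 on the log2 scale against -0.74 for the falls, and the median of all genes was -0.12. All 4 SHFD_SOL libraries lay above all 4 controls for 17 of the 18 risen genes and below them for 42 of the 43 fallen ones, the exceptions being UCK1 and MAVS. Over all genes tested, 1.33% lay wholly above and 8.48% wholly below. At an unadjusted p under 0.05 there were 1749 genes, 240 higher (2.19% of those tested) and 1509 lower (13.8%). The counts given below for gene lists at that level are to be read beside these shares. Since the median of all genes was below 0, more genes were negative than positive in soleus. The share by sign was not counted, so counts of positive or negative values in a list do not by themselves set it apart. Genes named below as without overlap are to be read beside the shares of 1.33% and 8.48%.

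Most of these calls sat close to the threshold. Of the 61, 33 had an adjusted p of at least 0.04 and 14 one under 0.02. The largest adjusted p of a called gene was 0.0495 and the smallest of a gene not called was 0.0516. The calls also rest on a spread shared over all 24 libraries. With the 8 compared libraries alone in the fit, 1 gene was higher and 2 lower, and 59 of the 61 calls were lost. The median SD of log2 values within a group was 0.225 in SHFD_SOL and 0.17 in CONT_SOL. Scaling moved the balance of directions: after quantile normalization the median of all genes was 0.00, and 58 genes were higher and 30 lower, so that 65.9% of calls were rises in place of 29.5%. All 18 rises and 27 of the 43 falls were still called there. SHFD_SOL 1 held the highest value of the 4 for 10 of the 18 risen genes and the lowest for 28 of the 43 fallen ones, more often than any of its partners.

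Leaving out 1 library moved the number of calls by more than 1.5 times in each of 8 cases. Without SHFD_SOL 1 there were 6 higher and 3 lower genes, without SHFD_SOL 2 there were 40 and 165, and without SHFD_SOL 3 there were 3 and 0. Without SHFD_SOL 4, the library with few fast-type transcripts, 38 genes were higher and 153 lower, and 58 of the 61 calls held. Among controls, the counts were 8 and 10 without CONT_SOL 1, 6 and 4 without CONT_SOL 2, 14 and 10 without CONT_SOL 3, and 7 and 6 without CONT_SOL 4. Every one of the 61 genes kept its direction in all 18 alternative analyses. For the 17 risen and 42 fallen genes without overlap, leaving out a library cannot change the direction, so this adds little. The calls that held in all 8 of these cases were those of ENSGALG00000051520 and AFAP1, and CCSAP, HSPA4, MIER1 and SLC39A10 lost theirs only without SHFD_SOL 3. Of the 43 falls, 0 were still called without SHFD_SOL 3, and 2, those of MIER1 and PNPLA6, without SHFD_SOL 1.

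**Figure D2:**
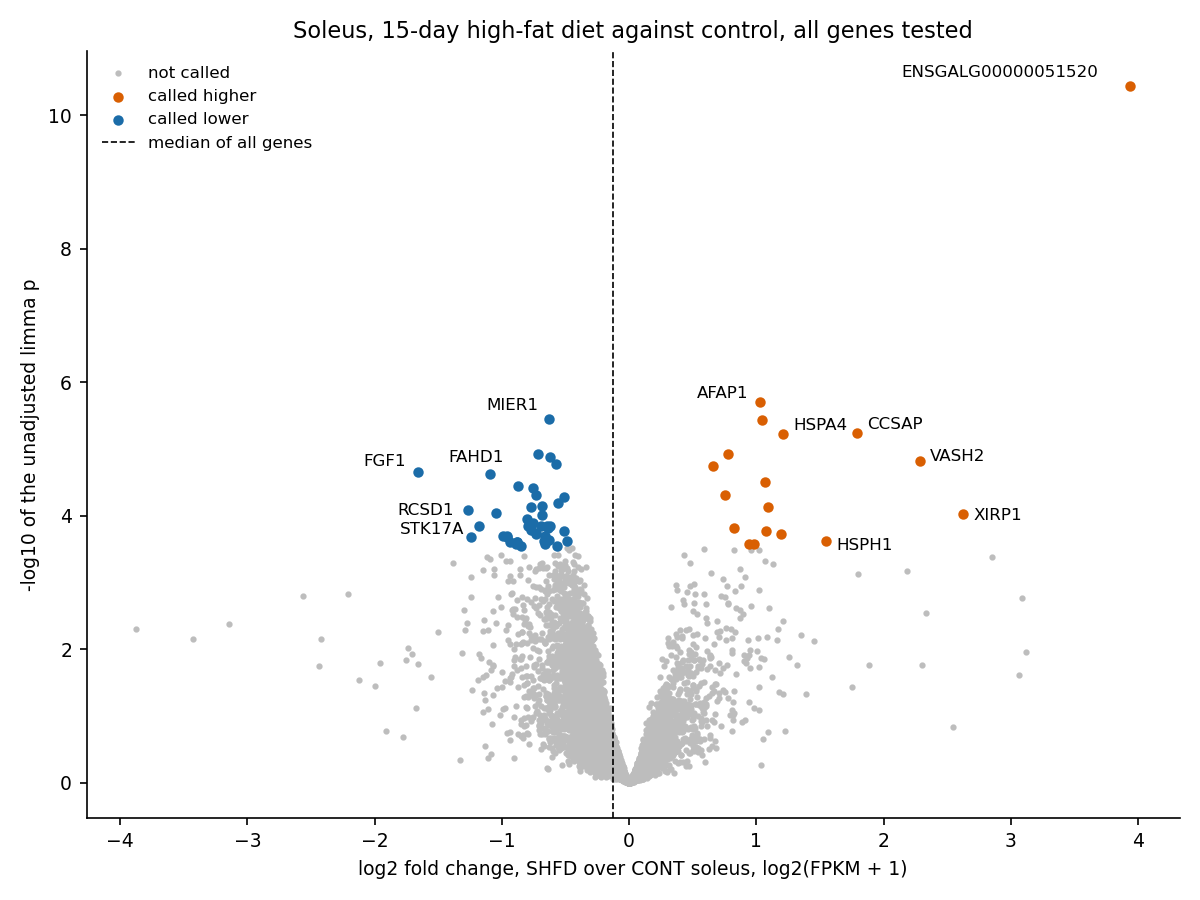
Log2 fold change of SHFD_SOL over CONT_SOL (x axis, on log2(FPKM + 1)) against -log10 of the unadjusted limma p (y axis) for the 10944 genes tested, with the 18 called rises in orange, the 43 called falls in blue and the median of all genes, -0.12, as a dashed line. ENSGALG00000051520 stands alone at 3.94, and the remaining calls lie close to the border with the genes not called.

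The gene with the largest and best supported rise carries no symbol in the table. ENSGALG00000051520, singled out after its values were seen, stood at 2.09, 2.29, 1.72 and 2.03 FPKM in CONT_SOL 1 to 4 and at 61.5, 41.1, 49.2 and 33.9 FPKM in SHFD_SOL 1 to 4. Every 15-day library lay far above every control, and the control values were nearly equal. The log2 fold change was 3.94 ± 0.32 (SE), adjusted p = 3.9e-07, and the call held in all 18 alternatives, with values between 3.79 and 4.42. In LHFD_SOL it stood at 18.9, 18.1, 14.1 and 44.96 FPKM, above every control. In PEM it did not follow the diet, with 0.512, 2.25, 0.629 and 1.11 FPKM in controls and 1.76, 1.15, 1.15 and 0.494 FPKM after 15 days.

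Of the 18 risen genes, XIRP1, KLHL41 and SYNPO2L are on the list of Z-disc, costamere and load-responsive proteins, and AFAP1 is not. XIRP1, a Xin-repeat actin-binding protein known from sites of fibre damage and from muscle-tendon junctions, stood at 84.8, 77.99, 76.3 and 40.4 FPKM in controls and at 1129, 344, 416 and 192 FPKM in SHFD_SOL. The groups did not overlap, and SHFD_SOL 1 was far above its partners. The log2 fold change was 2.62 ± 0.55 (SE), adjusted p = 0.0375. KLHL41, a Kelch protein that stabilises thin-filament proteins, rose from 356, 361, 469.6 and 365 FPKM to 1215, 513, 886 and 611 FPKM. Its lowest 15-day value, in SHFD_SOL 2, was above its highest control, in CONT_SOL 3, and the log2 fold change was 0.98 ± 0.23 (SE), adjusted p = 0.049. SYNPO2L, an actin-binding protein of the Z-disc, stood at 221, 246, 375 and 283 FPKM in controls and at 623, 413, 428 and 719.8 FPKM in SHFD_SOL, again without overlap, with a log2 fold change of 0.94 ± 0.22 (SE), adjusted p = 0.0484. AFAP1, which cross-links actin filaments, rose at a much lower level, from 1.85, 1.94, 2.13 and 3.21 to 5.44, 4.67, 5.001 and 7.68 FPKM, by 1.03 ± 0.16 (SE), adjusted p = 0.0102.

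The wider list of 17 Z-disc, costamere and load-responsive genes held these 3 calls, all higher, and no fall. Its median log2 fold change was 0.38 against -0.12 for all genes, and 13 of the 17 values were positive. The list held 7 higher and 0 lower genes at an unadjusted p under 0.05, beside 2.19% and 13.8% of all genes. KLHL40, the relative of KLHL41 that protects nebulin, stood at 149.7, 163, 213 and 132 FPKM in controls and 1639, 473, 1035 and 369 FPKM in SHFD_SOL. These groups did not overlap either, but the spread among the 15-day libraries was wide and the gene was not called, with a log2 fold change of 2.18 ± 0.55 (SE), adjusted p = 0.064. CSRP3, muscle LIM protein, reached 2582, 402, 1925 and 963 FPKM in SHFD_SOL against 331, 372, 785 and 356 FPKM, with overlap between the groups and an adjusted p of 0.14. The calls of XIRP1 and KLHL41 held without SHFD_SOL 2 and without SHFD_SOL 4 and were lost without any of the other 6 libraries. That of SYNPO2L held without SHFD_SOL 2 and without CONT_SOL 3.

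The risen genes also included HSPH1, HSPA4 and DNAJB4. HSPH1 and HSPA4 are members of the Hsp110 family, which exchange the nucleotide of Hsp70 and help dissolve aggregated protein. HSPA4 stood at 50.6, 66.7, 87.1 and 67.6 FPKM in controls and at 161, 116, 221 and 142 FPKM after 15 days, with no overlap and a log2 fold change of 1.21 ± 0.20 (SE), adjusted p = 0.0109. HSPH1 rose from 11.3, 16.3, 19.03 and 21.97 FPKM to 85.7, 31.4, 55.7 and 44.03 FPKM, with SHFD_SOL 1 highest and CONT_SOL 1 lowest, by 1.55 ± 0.35 (SE), adjusted p = 0.0484. DNAJB4, an Hsp40 co-chaperone that delivers clients to Hsp70, rose from 53.1, 39.4, 66.2 and 39.9 FPKM to 151, 112, 81.4 and 86.3 FPKM, by 1.09 ± 0.22 (SE), adjusted p = 0.034. In all 3 genes the lowest 15-day library was above the highest control.

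The list of 31 unfolded protein and heat shock genes held 2 calls, HSPH1 and DNAJB4, both higher, and HSPA4 is not on it. The list median was 0.12 and 19 of 31 values were positive. In this list 10 genes were higher and 1 lower at an unadjusted p under 0.05, beside 2.19% and 13.8% of all genes. BAG3, the co-chaperone that works with Hsp70 in clearing damaged Z-disc proteins, stood at 875, 496, 569 and 573 FPKM against 316, 288, 426 and 358 FPKM in controls and was not called (adjusted p = 0.0758). XBP1, a transcription factor of the endoplasmic reticulum stress response, had means of 48.1 ± 7.98 FPKM and 31.3 ± 5.02 FPKM (SD, n = 4) and an adjusted p of 0.0861. The call of HSPH1 was lost without any 1 of 6 libraries, all but SHFD_SOL 2 and SHFD_SOL 4, and that of DNAJB4 also held without CONT_SOL 3.

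MTHFD2, AMD1, UCK1 and EIF5 were also called higher. MTHFD2, a mitochondrial enzyme of one-carbon metabolism that feeds purine synthesis, rose from 18.8, 20.1, 8.42 and 12.3 FPKM to 24.5, 36.4, 28.5 and 50.7 FPKM, by 1.20 ± 0.27 (SE), adjusted p = 0.0478. Of the 8 analyses that left out 1 library, its call held in 1, that without SHFD_SOL 2. The fold change was 1.01 (adjusted p = 0.0605) without SHFD_SOL 4, the highest library, and 0.78 (adjusted p = 0.156) without SHFD_SOL 4 and CONT_SOL 3 together. AMD1, which makes the aminopropyl donor for polyamines, had means of 18.05 ± 2.74 FPKM and 40.5 ± 14.1 FPKM (SD, n = 4), a log2 fold change of 1.08 with adjusted p = 0.047. UCK1, a kinase that salvages uridine and cytidine, stood at 8.01, 7.98, 11.6 and 7.63 FPKM in controls and 21.2, 11.3, 30.9 and 18.5 FPKM in SHFD_SOL. The lowest 15-day value of UCK1, in SHFD_SOL 2, lay just under the control value of CONT_SOL 3, the overlap named above. Its log2 fold change was 1.07 ± 0.20 (SE), adjusted p = 0.0223. EIF5, the translation initiation factor that triggers GTP hydrolysis on the start codon, rose from 166, 154, 149.7 and 149 FPKM to 254, 245, 278 and 206 FPKM, a small and even change of 0.66 ± 0.12 (SE), adjusted p = 0.0168.

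VASH2, a vasohibin that trims tyrosine from tubulin, was under 1 FPKM in all controls, at 0.794, 0.566, 0.731 and 0.743 FPKM, and at 26.6, 4.05, 8.08 and 2.76 FPKM in SHFD_SOL, a log2 fold change of 2.28 ± 0.41 (SE), adjusted p = 0.0165. SHFD_SOL 1 held most of that signal. CCSAP, a protein of centrioles and spindles that binds microtubules, rose from 1.07, 2.25, 2.19 and 1.35 FPKM to 8.92, 3.74, 14.1 and 9.10 FPKM, by 1.79 ± 0.30 (SE), adjusted p = 0.0109. AOPEP, an aminopeptidase, and HIPK3, a nuclear protein kinase, rose by 0.82 (adjusted p = 0.0448) and 0.75 (adjusted p = 0.0283) without overlap. SLC39A10, a zinc importer, and JMY, which nucleates actin filaments, were called at means under 5 FPKM, with log2 fold changes of 1.04 and 0.78.

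**Figure D3:**
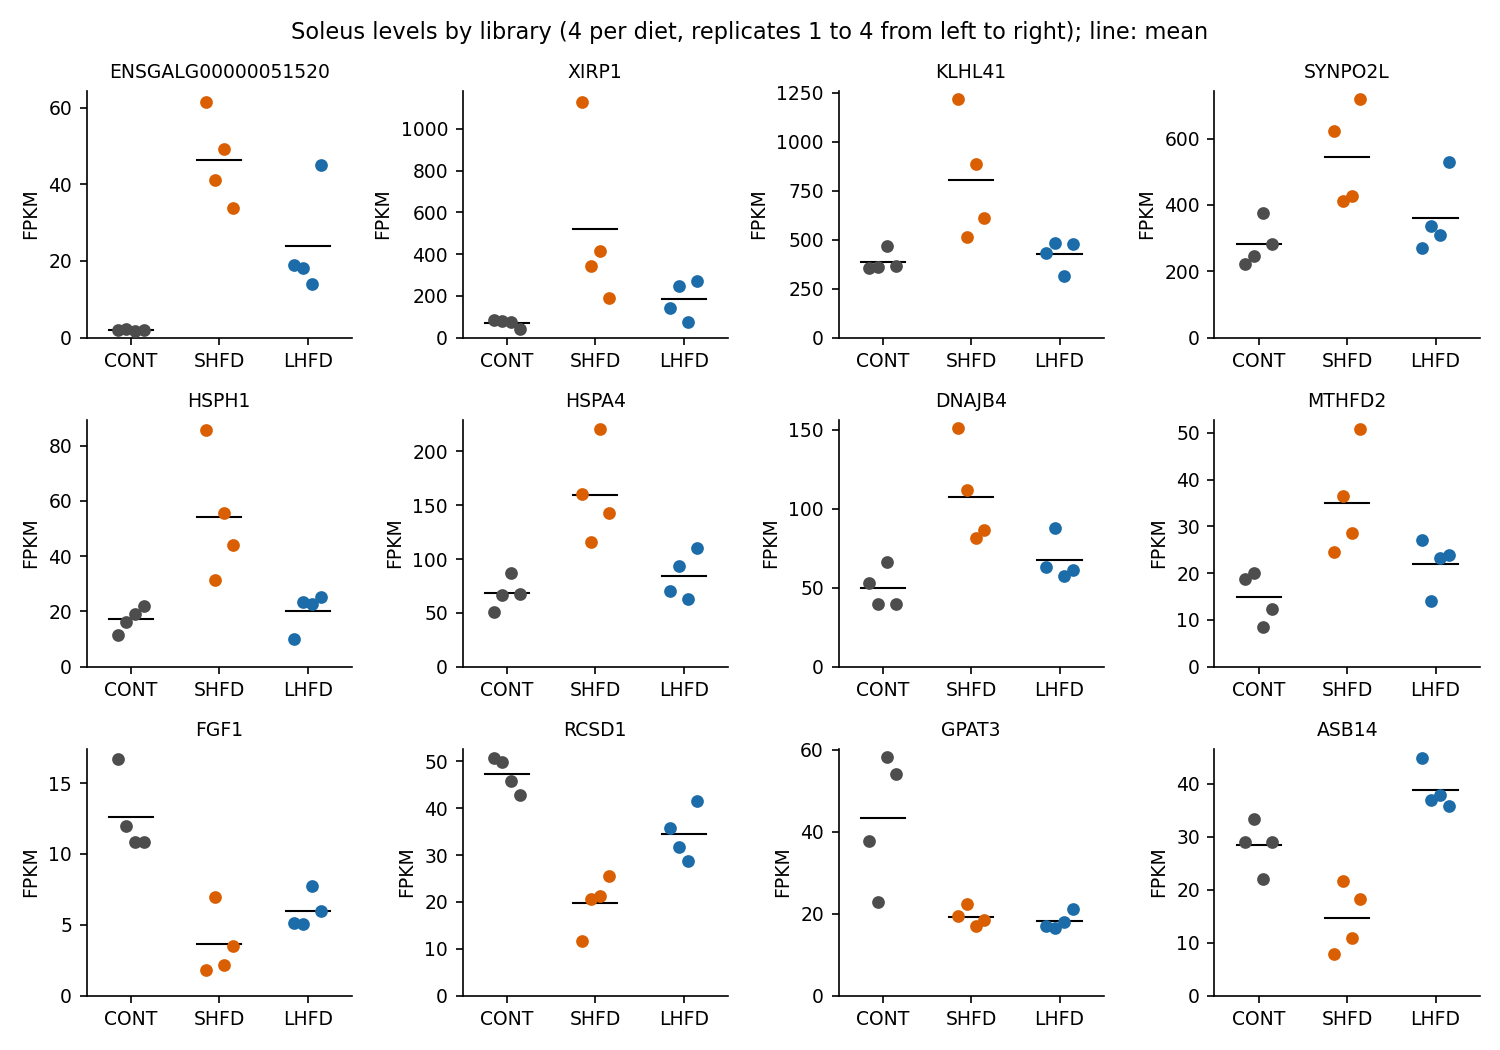
FPKM (y axis, linear from 0) of 12 genes in each soleus library, with 4 points per diet in the order of replicates 1 to 4 and a line at the mean. The 8 genes of the upper 2 rows lie higher in SHFD than in CONT and the 4 of the bottom row lie lower. In LHFD, FGF1 and GPAT3 lay below every control, and ASB14 lay above every control.

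The largest fall among called genes was that of FGF1, a heparin-binding growth factor that in mouse adipose tissue responds to feeding and to PPARG. FGF1 stood at 16.7, 11.98, 10.9 and 10.8 FPKM in controls and at 1.81, 6.97, 2.17 and 3.51 FPKM in SHFD_SOL. No value overlapped, although SHFD_SOL 2 was well above its partners. The log2 fold change was -1.66 ± 0.31 (SE), adjusted p = 0.0186. Its call was lost without SHFD_SOL 1, SHFD_SOL 3, CONT_SOL 1 or CONT_SOL 2.

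Among genes of lipid handling, GPAT3 fell. GPAT3 acylates glycerol-3-phosphate, the first step towards triglyceride, and stood at 37.7, 22.9, 58.2 and 54.1 FPKM in controls and at 19.4, 22.4, 16.98 and 18.4 FPKM in SHFD_SOL. The 15-day values were even, and the nearest pair, CONT_SOL 2 and SHFD_SOL 2, differed by less than 1 FPKM. The log2 fold change was -1.05 ± 0.22 (SE), adjusted p = 0.0375, and the call was lost without SHFD_SOL 1, SHFD_SOL 3, CONT_SOL 1, CONT_SOL 3 or CONT_SOL 4. MIGA2, a mitochondrial outer membrane protein that promotes fusion and tethers mitochondria to lipid droplets, fell from 5.98, 7.61, 8.54 and 8.94 FPKM to 2.25, 4.11, 3.28 and 5.79 FPKM, a change of -0.89 ± 0.20 (SE), adjusted p = 0.0484. FAHD1, a mitochondrial enzyme that decarboxylates oxaloacetate, fell from 6.62, 9.23, 7.34 and 9.51 FPKM to 3.06, 3.42, 3.39 and 3.17 FPKM. The 15-day values of FAHD1 were nearly the same in all 4 libraries and none came near a control, with a log2 fold change of -1.09 ± 0.20 (SE), adjusted p = 0.0186. SLC37A1, which exchanges sugar phosphates across the endoplasmic reticulum membrane, fell from 3.62, 4.82, 8.25 and 3.75 to 1.35, 2.91, 1.79 and 2.97 FPKM, a change of -0.88 with adjusted p = 0.0484.

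RCSD1, STK17A, ASB14 and H1-10 were also called lower. RCSD1, a protein that binds the actin capping protein, stood at 50.8, 49.8, 45.8 and 42.7 FPKM in controls and at 11.6, 20.7, 21.2 and 25.5 FPKM in SHFD_SOL, with every 15-day library far below the lowest control. Its log2 fold change was -1.27 ± 0.26 (SE), adjusted p = 0.0364. STK17A, a kinase of the death-associated family, fell from 29.2, 22.3, 28.5 and 22.98 FPKM to 8.77, 12.6, 7.03 and 16.7 FPKM, a change of -1.18 ± 0.26 (SE), adjusted p = 0.0448. ASB14, an ankyrin-repeat adaptor of ubiquitin ligases, stood at 29.04, 33.3, 22.05 and 28.9 FPKM in controls and at 7.93, 21.6, 10.9 and 18.2 FPKM in SHFD_SOL, where SHFD_SOL 2 nearly met the lowest control, with a log2 fold change of -0.99 ± 0.22 (SE), adjusted p = 0.0478. H1-10, a linker histone, fell from 60.03, 50.1, 53.97 and 56.5 FPKM to 18.3, 30.9, 24.2 and 43.6 FPKM, a change of -0.96 ± 0.21 (SE), adjusted p = 0.0478.

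The rest of the 15 largest falls had log2 fold changes from -0.96 to -0.76. RFX5, a transcription factor of the MHC class II genes, had means of 7.78 ± 0.870 FPKM in controls and 4.17 ± 0.783 FPKM in SHFD_SOL (SD, n = 4), a log2 fold change of -0.77 with adjusted p = 0.034. TMEM120A, a membrane protein of the nuclear envelope and endoplasmic reticulum, had a log2 fold change of -0.96 (adjusted p = 0.0484), and its control mean was raised by CONT_SOL 4 at 24.1 FPKM against 11.0 to 11.6 FPKM in the other 3. GBGT1, a glycosyltransferase of glycolipids, changed by -0.87, TCP11X2 by -0.80, DENND6B, an exchange factor of RAB proteins, by -0.79, and MTUS1, a microtubule-associated protein, by -0.76, with adjusted p-values between 0.0248 and 0.0448. The 9 other fallen genes that carry a symbol and average 5 FPKM or more included MIER1, a chromatin co-repressor, at 9.96, 10.3, 10.4 and 9.82 FPKM in controls and 5.38, 6.92, 5.22 and 7.43 FPKM in SHFD_SOL (log2 fold change -0.63 ± 0.10 (SE), adjusted p = 0.0102). They also included PNRC1, a nuclear receptor coactivator, and MAVS, the mitochondrial adaptor of antiviral sensing, with log2 fold changes of -0.73 and -0.69. Of the other fallen genes, 8 with a symbol had means under 5 FPKM and 11 had no symbol.

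The genes most often read as a response of muscle to dietary fat were not called. The list of 18 fat-responsive fuel switch genes had a median log2 fold change of -0.32 against -0.12 for all genes, with 13 values negative and none called by limma. In it 1 gene was higher and 3 lower at an unadjusted p under 0.05, the falls being near the share of 13.8% over all genes. The list mean on the log2(FPKM + 1) scale was 5.60 in CONT_SOL 2 and 6.01 to 6.07 in the other controls. In SHFD_SOL it was 5.484 to 5.905. PDK4, which shuts glucose carbon out of the mitochondrion, stood at 528, 680.0, 368 and 565 FPKM in SHFD_SOL and at 1122, 523, 1223 and 933 FPKM in controls. The groups overlapped widely, and the log2 fold change was -0.79 ± 0.68 (SE), adjusted p = 0.598. UCP3, a mitochondrial carrier, stood at 153, 259.8, 196 and 70.4 FPKM and 207, 236, 221 and 257 FPKM, with SHFD_SOL 4 lowest. CPT1A, the entry step of fatty acids into mitochondria, and ANGPTL4, an inhibitor of lipoprotein lipase, differed by 0.05 and 0.29 with adjusted p-values of 0.934 and 0.64. ANGPTL4 was low, with means of 1.49 FPKM in SHFD_SOL and 1.03 FPKM in CONT_SOL. Its control mean was raised by CONT_SOL 1 at 2.31 FPKM, against 0.54 to 0.65 FPKM in the other controls.

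Fatty acid uptake, binding and droplet genes had the lowest median of the 37 lists. It was -0.59 over 18 genes, 15 of them negative, with no gene called by limma and 1 higher and 5 lower at an unadjusted p under 0.05. FABP5, a fatty acid binding protein, stood at 46.9, 51.8, 40.7 and 32.01 FPKM in SHFD_SOL and 98.01, 60.3, 74.8 and 80.4 FPKM in controls, and VLDLR, a receptor for triglyceride-rich lipoproteins, at 15.4, 26.9, 17.7 and 19.4 FPKM and 33.3, 35.6, 28.5 and 29.5 FPKM. Both were below every control in all 4 libraries, as were 8.48% of all genes, with an adjusted p of 0.0629 and 0.0629. CD36, the fatty acid translocase, ranged over 57.6 to 115 FPKM in SHFD_SOL and 83.6 to 233 FPKM in controls, and FABP3, the heart-type binding protein, over 1386 to 2718 FPKM and 1392 to 4383 FPKM, with overlap and adjusted p-values of 0.331 and 0.407. LPL, lipoprotein lipase, had a log2 fold change of -0.70 (adjusted p = 0.468), and ACSL1, which activates fatty acids to acyl-CoA, of -0.84 (adjusted p = 0.101). PLIN2, which coats lipid droplets, lay the other way, at 38.7, 44.03, 33.2 and 20.8 FPKM against 25.9, 14.7, 17.6 and 25.1 FPKM, with an adjusted p of 0.208.

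Synthesis and oxidation of fat gave 1 call between them. Of 20 fatty acid and triglyceride synthesis genes, GPAT3 was called lower, none was called higher, and the median was -0.26. Among the 20, 0 were higher and 8 lower at an unadjusted p under 0.05, beside 2.19% and 13.8% of all genes. AGPAT2, the acyltransferase that follows GPAT3 in the pathway, stood at 7.34, 12.4, 11.5 and 11.9 FPKM against 22.2, 17.7, 21.2 and 20.4 FPKM, without overlap and with an adjusted p of 0.0847. Of all genes, 8.48% likewise lay wholly below the controls. FASN and SREBF1, the fatty acid synthase and a regulator of lipid synthesis, had log2 fold changes of -0.05 and 0.16 with adjusted p-values of 0.911 and 0.76. The medians of 21 mitochondrial and 14 peroxisomal fatty acid oxidation genes were -0.09 and -0.28, and that of 25 cholesterol synthesis and uptake genes was -0.22. None of their genes was called by limma, and 2, 3 and 3 were lower and none higher at an unadjusted p under 0.05. CPT2, the inner membrane carnitine acyltransferase, had means of 19.7 ± 2.93 FPKM and 28.2 ± 5.005 FPKM (SD, n = 4; adjusted p = 0.0853). PPARGC1A, the coactivator PGC-1alpha, had a log2 fold change of -0.54 (adjusted p = 0.167), TXNIP of -0.24 and FOXO1 of -0.29. SCD, a fatty acid desaturase, was looked up by name and was not among the genes tested.

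No gene of oxidative phosphorylation or of the TCA cycle was called. Medians were -0.0013 over 63 nuclear oxidative phosphorylation genes, -0.07 over 13 mitochondrially encoded ones and -0.05 over 24 of the TCA cycle. None of these genes was called by limma, and none had an unadjusted p under 0.05. The 20 glycogen and glycolysis genes had a median of -0.20, with 0 called by limma and 2 lower at an unadjusted p under 0.05. LDHA, the muscle lactate dehydrogenase, stood at 432, 1360.3, 1007 and 149 FPKM and 1340.4, 1483, 663 and 794 FPKM, with SHFD_SOL 4 lowest, a log2 fold change of -0.89 (adjusted p = 0.359) and one of -0.27 without that library. Of the cytosolic ribosomal protein genes, 61 of 67 values were positive, the median was 0.08, and none was called by limma, with 0 higher and 1 lower at an unadjusted p under 0.05. That median was 0.01 without SHFD_SOL 4.

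No gene of the lists of protein breakdown and of the interferon response was called. FBXO32 and TRIM63 are the muscle ubiquitin ligases atrogin-1 and MuRF1. TRIM63 stood at 59.8, 71.96, 52.6 and 60.6 FPKM in SHFD_SOL and 143, 163, 165 and 239.6 FPKM in controls, and FBXO32 at 20.9, 65.2, 21.1 and 47.8 FPKM and 69.1, 119, 122 and 172 FPKM. Neither gene overlapped between groups, beside 8.48% of all genes that lay wholly below the controls. Their log2 fold changes were -1.50 ± 0.49 (SE), adjusted p = 0.127 and -1.71 ± 0.62 (SE), adjusted p = 0.172. The list of 32 proteolysis, autophagy and glucocorticoid response genes had a median of -0.19, with 0 called by limma. At an unadjusted p under 0.05, 6 of the 32 were lower, beside 13.8% of all genes, and after quantile normalization the list median was -0.06 against 0.00 for all genes. Of 24 interferon response genes 22 were negative, with a median of -0.54, 0 called by limma and 10 lower and 0 higher at an unadjusted p under 0.05. CONT_SOL 3 had a mean over these genes of 4.01 on the log2(FPKM + 1) scale, against 2.91 to 3.19 in the other controls and 2.54 to 2.88 in SHFD_SOL. Without SHFD_SOL 4 and CONT_SOL 3 together the list median was -0.40. IRF7 and IFIH1, an interferon regulator and an RNA sensor, had adjusted p-values of 0.129 and 0.112.

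Clock and immediate early genes were mixed. Of 17 clock genes 9 were positive and 8 negative, with a median of 0.01, 0 called by limma and 4 higher and 4 lower at an unadjusted p under 0.05. Over all genes 2.19% were higher and 13.8% lower at that level. NR1D2 and PER2, repressors of the clock loop, had means of 19.1 ± 6.12 and 7.08 ± 0.951 FPKM in SHFD_SOL and of 10.6 ± 1.70 and 4.004 ± 0.718 FPKM in controls (SD, n = 4), with adjusted p-values of 0.0814 and 0.106. ARNTL, an activator of that loop, had a log2 fold change of -0.57 (adjusted p = 0.0885). ATF3, a stress-induced transcription factor, ranged over 43.3 to 514 FPKM in SHFD_SOL and 17.2 to 113 FPKM in controls, with a log2 fold change of 1.89 and adjusted p = 0.195. Of 24 immediate early genes 0 were called by limma, with 1 higher and 3 lower at an unadjusted p under 0.05 and a median of -0.13. The lists of insulin signalling, AMP-activated kinase, PPAR and PGC-1 regulators, fibre type regulators, oxidative stress, mitochondrial ribosomal proteins, proteasome and extracellular matrix also held 0 genes called by limma, with medians between -0.26 and -0.08. At an unadjusted p under 0.05, 0 to 1 of each of these lists were higher and 2 to 6 lower. The count of 6 stood for 6 of 16 PPAR and PGC-1 regulators and for 6 of 68 mitochondrial ribosomal proteins.

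**Figure D4:**
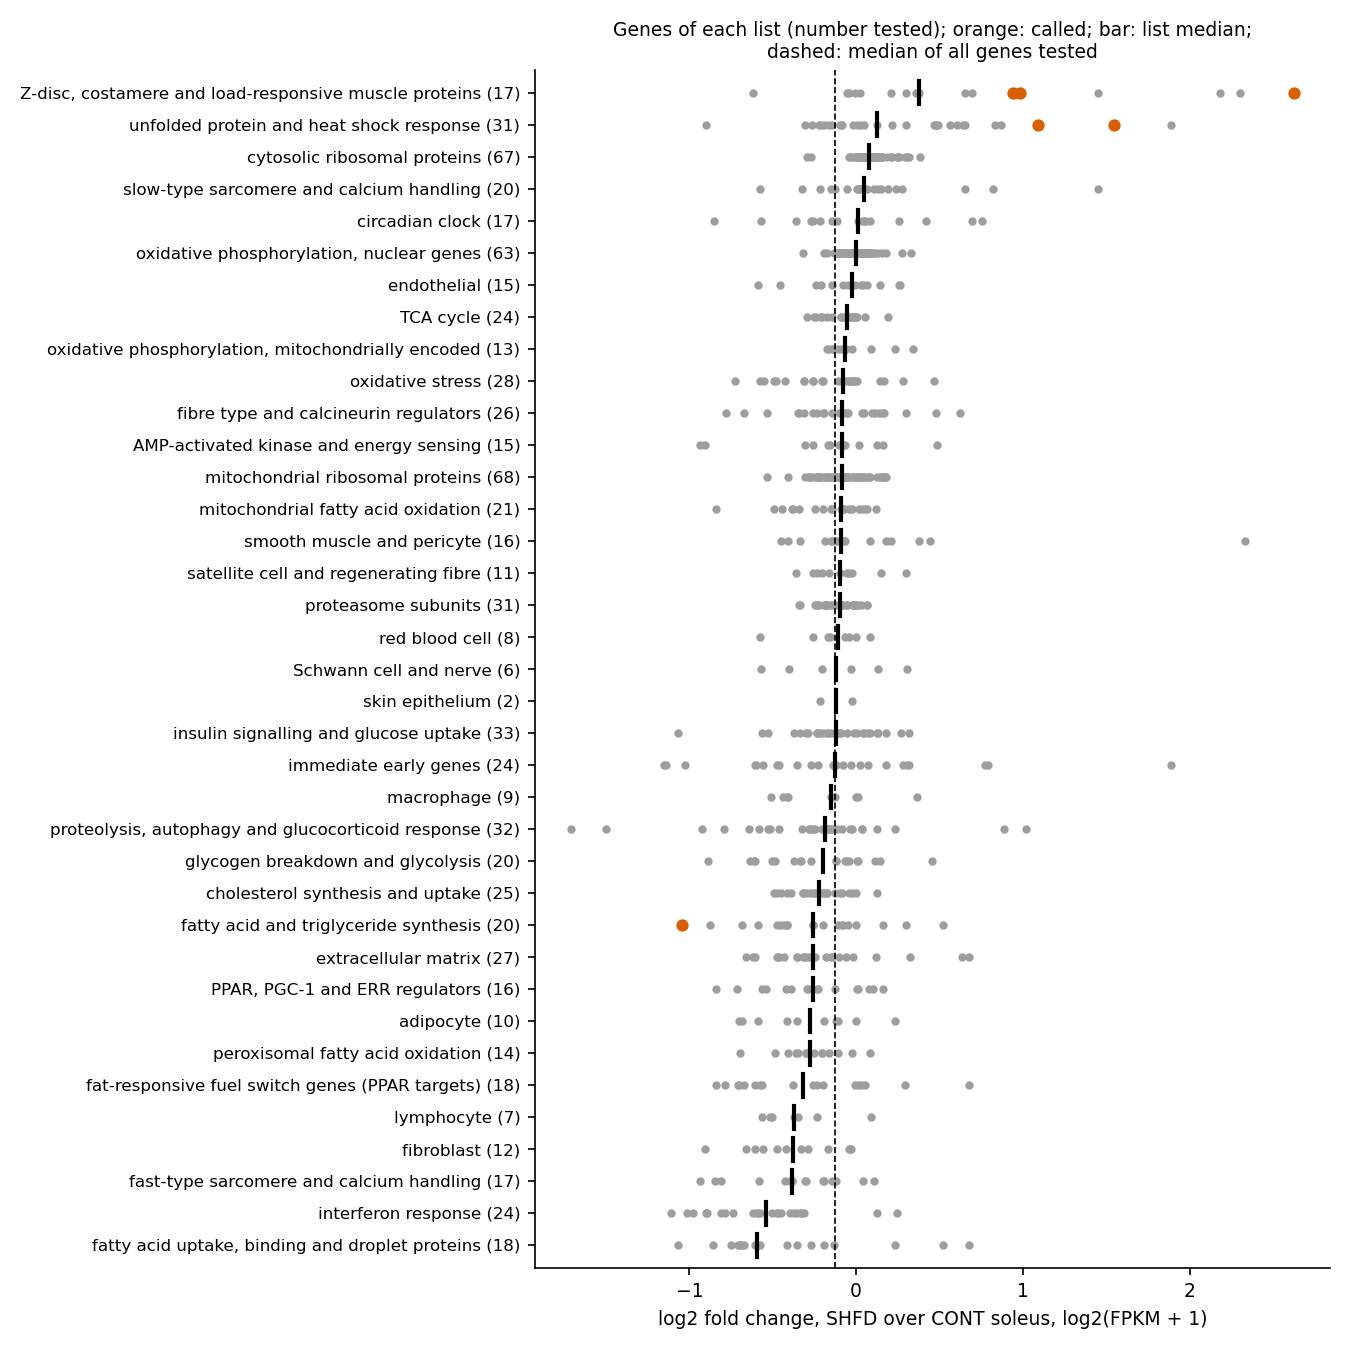
Log2 fold change of SHFD_SOL over CONT_SOL (x axis, on log2(FPKM + 1)) for each gene of the 37 lists, with called genes in orange, list medians as bars, the number of genes tested in brackets and the median of all genes, -0.12, as a dashed line. Z-disc genes lie highest, with a median of 0.38, and fatty acid uptake genes lowest, at -0.59, and the 6 called genes belong to 3 lists.

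Fibre type genes were not called in either direction. Of 13 fibre genes tested by name, 6 changed sign without SHFD_SOL 4, and 4 did so without SHFD_SOL 4 and CONT_SOL 3 together. MYH7B, a slow-tonic myosin heavy chain, stood at 1024, 1690.0, 1476 and 8699 FPKM in SHFD_SOL and at 2290.2, 2039, 4303 and 2706 FPKM in controls. Its log2 fold change was -0.32 (adjusted p = 0.845), and -0.99 without SHFD_SOL 4. TNNI1, the slow troponin I, stood at 2266, 1637, 1529.5 and 6172 FPKM and 1827, 1626, 4236 and 2063 FPKM, with a log2 fold change of 0.11 that was -0.34 without that library. TNNI2, the fast troponin I, stood at 5494, 6329, 6359.8 and 1319.6 FPKM and 5181, 7114, 4069 and 5651 FPKM, with a log2 fold change of -0.38 that was 0.16 without it. MYH1C, a fast myosin heavy chain, had log2 fold changes of -0.81 and -0.20. The median over the 20 slow-type genes was 0.05 with all libraries and -0.23 without SHFD_SOL 4, and that over the 17 fast-type genes was -0.38 and 0.18. Without SHFD_SOL 4 and CONT_SOL 3 together these medians were -0.11 and 0.05, and the log2 fold changes of TNNI1 and TNNI2 were -0.04 and 0.03. In the 20 slow-type genes limma called 0, with 1 higher at an unadjusted p under 0.05, and in the 17 fast-type genes 0, with none at that level. MB, myoglobin, and LDHB differed by -0.15 and -0.07 with adjusted p-values of 0.88 and 0.942.

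Markers of the other cells of the tissue were set beside these results. None of the genes in 10 marker lists was called by limma, and at an unadjusted p under 0.05 the lists held 0 to 1 higher and 0 to 2 lower. All 12 fibroblast genes tested were negative, with a median of -0.38, beside -0.12 over all genes tested. The sums given here also include listed genes that did not pass the filter. Over 14 fibroblast genes the sum lay at 137 to 204 FPKM in CONT_SOL and 94.01 to 167 FPKM in SHFD_SOL. Medians were -0.37 for lymphocytes, whose genes summed to 15.3 to 29.4 FPKM in CONT_SOL and 11.5 to 17.04 FPKM in SHFD_SOL, and -0.28 for adipocytes, at 177 to 208 FPKM in CONT_SOL and 137 to 169.7 FPKM in SHFD_SOL. Macrophage genes summed to 349 to 455 FPKM in CONT_SOL and 197 to 373 FPKM in SHFD_SOL, with a median of -0.15. Endothelial genes, at 176 to 221 FPKM in CONT_SOL and 177 to 234 FPKM in SHFD_SOL, had a median of -0.03. In the smooth muscle and pericyte list CNN1, calponin, stood at 926, 106, 411 and 219.9 FPKM in SHFD_SOL and 37.7, 39.01, 153 and 57.7 FPKM in controls (adjusted p = 0.0973), highest in SHFD_SOL 1 like XIRP1, while ACTA2, smooth muscle actin, stood at 3.005, 4.94, 4.27 and 5.77 and 7.80, 8.43, 4.43 and 4.83 FPKM. That list summed to 3302 to 4266 FPKM in CONT_SOL and 4157 to 5762 FPKM in SHFD_SOL, with a median of -0.09. Most of the sum was DES, desmin, which is also on the Z-disc list, with means of 3326.8 FPKM in CONT_SOL and 4311.5 FPKM in SHFD_SOL. The sum is therefore not a measure of smooth muscle cells. Medians of the red blood cell, satellite cell and regenerating fibre, Schwann cell and skin lists lay between -0.12 and -0.09. Among red blood cell markers HBZ and HBBR were listed at 0 in all 8 libraries, and no other marker was. The part of these cell types in the called genes was not tested.

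The same 15-day comparison was made in the breast muscle libraries. There 117 genes were called (1.07%), 59 higher (0.539%) and 58 lower (0.530%). Of the 61 genes called in soleus, 5 were called in PEM in the same direction and 0 in the opposite one. They were SYNPO2L, higher by 1.23 in PEM (adjusted p = 0.0101), and RFX5, PNRC1, H1-10 and APLF, a DNA repair factor, lower by log2 fold changes of -0.85, -0.80, -0.97 and -0.50. By sign alone, 16 of the 18 risen genes were positive in PEM and 38 of the 43 fallen ones negative, beside 45.5% positive and 54.4% negative over all genes tested. The median PEM changes were 0.47 and -0.28, with -0.02 for all genes. Since the muscles may share birds, the PEM signs are not independent of those in soleus. XIRP1 had a PEM change of 2.02 ± 0.55 (SE), adjusted p = 0.0765, HSPH1 one of 1.24 ± 0.35 (SE), adjusted p = 0.0896 and FGF1 one of -1.10 ± 0.31 (SE), adjusted p = 0.0849, none of them called. KLHL40, not called in soleus, was called in PEM with 2.32 (adjusted p = 0.0415).

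Whether the response differed between muscles was tested as the soleus change minus the PEM change. Both muscles were taken from the selected hens, but the bird behind each library is unknown. The fit therefore treated all libraries as independent, and its p-values do not allow for shared birds. The test called 1 of 10944 genes (0.00914%), ENSGALG00000051520, with a difference of 3.89 ± 0.46 (SE), adjusted p = 2.5e-04. At an unadjusted p under 0.05 there were 701 genes. UCK1, AFAP1, AOPEP, HIPK3 and GPAT3 had PEM changes near 0, of 0.01, 0.08, 0.06, -0.10 and 0.10. Their differences between muscles were 1.06, 0.95, 0.77, 0.86 and -1.14, with adjusted p-values of 0.427, 0.334, 0.553, 0.334 and 0.406, so that a difference was not shown for them.

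**Figure D5:**
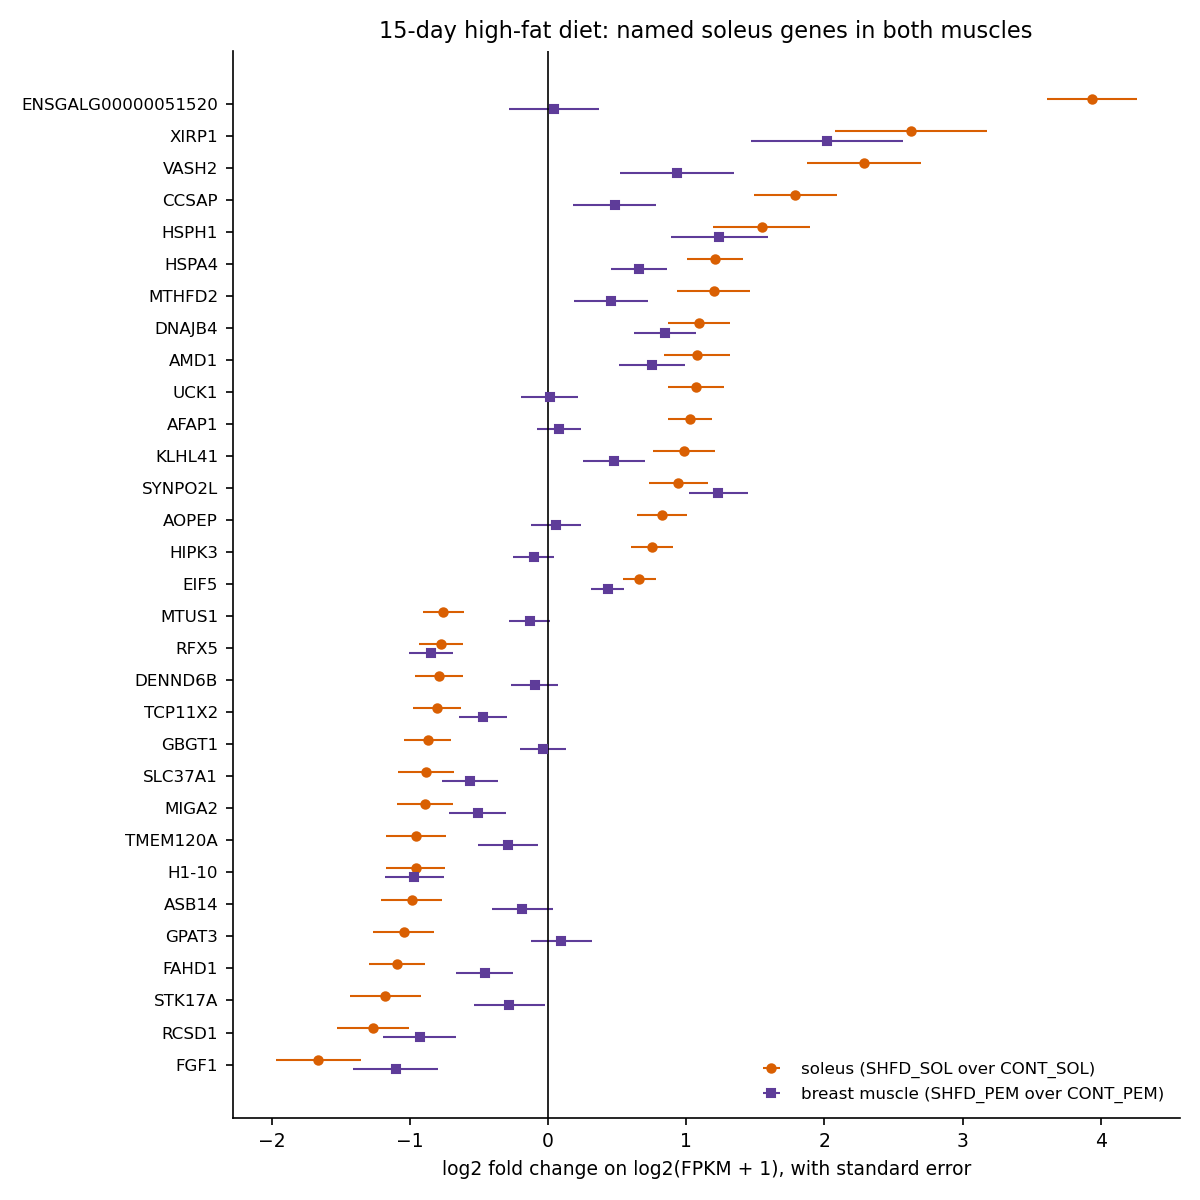
Log2 fold change of the 15-day diet over control with its standard error (x axis, on log2(FPKM + 1)) for ENSGALG00000051520 and the 30 named genes, in soleus (orange circles) and in breast muscle (purple squares). For XIRP1, HSPH1, SYNPO2L, RFX5 and H1-10 the muscles lie close together, and for ENSGALG00000051520, UCK1, AFAP1 and GPAT3 the breast muscle lies near 0.

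The 60-day group shows the levels of the same genes under longer feeding. It shares the control libraries with the 15-day comparison, and the direct contrast with 15 days shares the SHFD_SOL libraries, so the values are given side by side. Against controls, 57 genes were called at 60 days (0.521%), 25 higher (0.228%) and 32 lower (0.292%). ENSGALG00000051520 had a log2 fold change over control of 3.94 at 15 days and 2.90 at 60 days, GPAT3 of -1.05 and -1.12, and XIRP1 of 2.62 and 1.26. HSPH1 stood at 1.55 and 0.19, KLHL41 at 0.98 and 0.13, and HSPA4 at 1.21 and 0.29. The adjusted p-values at 60 days were 3.5e-05 for ENSGALG00000051520 and 0.018 for GPAT3, and 0.351, 0.906, 0.899 and 0.629 for XIRP1, HSPH1, KLHL41 and HSPA4.

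In the direct contrast of 60 with 15 days, 97 genes were called (0.886%), 68 higher (0.621%) and 29 lower (0.265%). Among the 18 risen genes 5 were lower at 60 days, and among the 43 fallen genes 5 were higher, while 0 were called further in their 15-day direction. These genes were picked for their SHFD_SOL values, which the contrast uses again. That choice alone favours a shift back towards control, so the tally does not show an effect of longer feeding. UCK1 was at 20.5 ± 8.10 FPKM after 15 days and 7.99 ± 0.786 FPKM after 60 (SD, n = 4), a change of -1.18 (adjusted p = 0.00688). HSPA4, SLC39A10, AOPEP and EIF5 were lower by log2 changes of -0.92, -1.03, -0.76 and -0.56. ASB14 stood at 44.8, 36.8, 37.8 and 35.8 FPKM in LHFD_SOL, above every control as well as every 15-day library, a change of 1.44 (adjusted p = 0.00256). DENND6B, MAF, MTUS1 and MIER1 were higher by 1.04, 0.73, 0.69 and 0.62. The count of 97 was 35 without SHFD_SOL 1, 199 without SHFD_SOL 2 and 61 without SHFD_SOL 3.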

How the data were processed

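RNA from soleus and breast muscle was measured in 24 libraries, 4 per muscle and diet, grouped by their labels. The deposit also holds a list of 30 library names without values, and only the 24 libraries with values were used. The authors deposited 1 FPKM value per gene and library. Per the labels' protocols, fastp trimmed the reads, HISAT2 placed them on the genome build GRCg6a, and StringTie v1.3.3b made the values. Cufflinks and DESeq2 stand in the submitters' processing notes too, with no role given. Since FPKM are shares, abundant genes that rise push the others down. No counts were used, so the design's branch for normalized values applied. Depth is unknown: among 104716 ratios of low values no bin 0.01 wide on the log2 scale held more than 1.17%, so read numbers could not be recovered. No 2 libraries held identical values, and the highest correlation was 0.984.

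Tests ran on log2(FPKM + 1), which understates the change of low genes, by limma 3.58.1 in R 4.3.3 with a mean-variance trend. All 24 libraries entered 1 fit with 18 residual degrees of freedom. Tests are two-sided and Benjamini-Hochberg adjusted over 10944 genes, with calls at an adjusted p under 0.05. The fit was tested on simulated data with independent noise and, for each gene, the same spread in all groups. That test does not bear on how stable the calls above are. Of 1060 symbols in 37 gene lists, 850 were found in the table, 7 of them under an older symbol.

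The text names the 15 largest rises and the 15 largest falls by log2 fold change of called genes that carry a symbol and average 5 FPKM or more in their higher group, up to 4 genes with the smallest p per list, and 16 diet and 14 fibre genes. In each test of a difference it names up to 5 genes of the first set. ENSGALG00000051520 and called genes outside the rule were named after their values were seen. Some genes that the rule names are not reported here. The members, lists and rules were chosen with earlier results of these data known. Alternatives were quantile normalization, an equal sum over nuclear-encoded genes, a pseudocount of 0.1, no filter, fewer groups in the fit, a replicate block, array weights and leaving out each library. Leaving out SHFD_SOL 4 and CONT_SOL 3 together and a fast-type covariate in the 12 soleus libraries were added after seeing the data.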

Additional observations from a re-analysis of the deposited data

Results flagged for a closer look

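In SHFD_SOL 4 slow-fibre genes stood apart from the other 3 libraries of the group. MYH7B was at 8699 FPKM against 1024 to 1690 FPKM, TNNT1 at 4370.5 FPKM against 1081 to 1509 FPKM, TNNI1 at 6172 FPKM against 1530 to 2266 FPKM, TNNC1, labelled the slow and cardiac troponin C, at 2731 FPKM against 607 to 838 FPKM, and ATP2A2, the slow calcium pump, at 759 FPKM against 256 to 332 FPKM. The fast-type list mean was 7.20 on the log2 scale against 9.41 to 9.77, and the red blood cell list mean 2.73 against 3.63 to 3.78. Leaving this library out of the diet comparison gave 38 higher and 153 lower genes. Without SHFD_SOL 2 the counts were 40 and 165, so such counts do not measure the part of fibre make-up, which was not tested.

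CONT_SOL 3 stood apart from the other controls in the same genes and in others. TNNI1 was at 4236.5 FPKM against 1626 to 2063 FPKM and ATP2A2 at 537 FPKM against 320 to 355 FPKM. KLHL41 was at 469.6 FPKM against 356 to 365 FPKM, CSRP3 at 785 FPKM against 331 to 372 FPKM and UCK1 at 11.6 FPKM against 7.63 to 8.01 FPKM. Its list means were 8.83 for fast-type genes, 8.62 for Z-disc genes against 8.21 to 8.26, 4.67 for oxidative stress genes against 4.54 to 4.55, and 3.98 for fibre type regulators against 3.83 to 3.84. The part of fibre make-up in these values was not tested.

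Single values far from their group were spread over other libraries. In controls, TMEM120A was at 24.1 FPKM and ESRRB at 7.88 FPKM in CONT_SOL 4, ANGPTL4 was at 2.31 FPKM in CONT_SOL 1, and the fuel switch list mean was 5.60 in CONT_SOL 2 against 6.01 to 6.07. In the 15-day group, DENND6B was at 4.15 FPKM, AGPAT5 at 23.4 FPKM and the TCA cycle list mean at 6.85 in SHFD_SOL 2, and CPT2 was at 15.3 FPKM in SHFD_SOL 3. By Dixon's test at its 95% critical value for 4 samples, chance marks about 1 in 20 groups. Here 16 of 222 gene groups and 8 of 74 list groups were marked.

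The 15-day response of ENSGALG00000051520 differed between soleus and breast muscle by 3.89 on the log2 scale. The levels at 60 days differed from those at 15 days, past the limma threshold, for the genes given in the report: MIER1 by 0.62, SLC39A10 by -1.03, HSPA4 by -0.92, EIF5 by -0.56, UCK1 by -1.18, MTUS1 by 0.69, MAF by 0.73, DENND6B by 1.04, AOPEP by -0.76 and ASB14 by 1.44. Among genes not called after 15 days, DDIT4 differed by 1.72, PER2 by 1.11, PER3 by 0.95, NFATC1 by 1.44, SLC2A12 by 1.44, FNIP1 by 1.46 and PPARGC1A by 0.81 between 60 and 15 days, all higher at 60 days. Over all genes, 0.621% were called higher and 0.265% lower in this contrast. Apart from PPARGC1A, a diet gene, they were named for a small 15-day p in their list, and the contrast uses the SHFD_SOL values again. That choice alone favours a rise at 60 days for those below control at 15 days.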

How the results depend on the processing

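Each of the 61 called genes kept its direction in all 18 alternatives, and ENSGALG00000051520 was called in each of them. The directions were largely fixed beforehand, since most called genes did not overlap between the groups. Counts moved more. Against 18 higher and 43 lower, quantile normalization gave 58 higher and 30 lower, an equal sum over nuclear-encoded genes 22 and 86, a pseudocount of 0.1 gave 16 and 24, no filter 12 and 23, the 8 libraries alone 1 and 2, the 12 soleus libraries 17 and 40, array weights 154 and 918, and the fast-type mean as a covariate 44 and 188. With that covariate 12 of the 61 calls were lost, that of KLHL41 among them, while those of XIRP1 and SYNPO2L held. Leaving out SHFD_SOL 4 and CONT_SOL 3 together gave 24 and 36, with 32 of the 61 genes among them. Leaving out each library in turn gave 3 to 40 higher and 0 to 165 lower genes, 1 gene in the difference between muscles each time, and 35 to 199 genes at 60 against 15 days. In the difference between muscles, quantile normalization and array weights each called 2 genes in place of 1, and array weights called 474 in place of 97 at 60 against 15 days. The cause of these shifts was not tested. Of 27 diet and fibre genes tested by name, 2 were called in an alternative: ACSL1 with array weights, and PPARGC1A with array weights and with the covariate. Replicate numbers were not used to pair the samples. Between SHFD_SOL and CONT_SOL, whose hens were on different diets, correlations of the deviations of same-numbered libraries were 0.129, 0.187, -0.259 and -0.05. Not every library correlated best with its own number. Whether same-numbered soleus and breast muscle libraries came from the same bird is not given and was not tested. With the replicate block, 11 genes were higher and 12 lower. Depth is unknown, so the precision of low values is known only from the spread between 4 libraries.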
